A study of Mus musculus with 8 samples.

Results

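The prolactin receptor gene Prlr, the growth hormone receptor gene Ghr, the kinase gene Jak2, the transcription factor genes Stat5a and Stat5b, and the genes of the feedback inhibitors Cish and Socs2 were followed across the cell clusters and reproductive stages of the mouse mammary epithelium. The 7 genes were chosen by name as parts of 1 signalling route, out of 27998 genes counted, and each was present in the count matrices. Unique molecular identifiers (UMIs, tags that mark single mRNA molecules) were summed over the cells of each library in each cluster of the authors, C1 to C15, wherever a cluster held at least 20 cells of that library. This gave 35 sums of 20 to 4637 cells, expressed as counts per 1000000 UMIs of the sum (CPM).

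Single cells came from the mammary glands of 8 C57BL/6N mice, with 2 mice at each stage and 1 droplet library (10x, 3′ end counting) per mouse. The NP mice were nulliparous, that is never pregnant, and 8 weeks old. The G mice were taken at gestation day 14.5, the L mice at lactation day 6, and the PI (post-involution) mice 11 days past natural weaning. An age is given only for the NP mice, and age cannot be told apart from stage or parity. No transgene is named for any of the mice. Cells were sorted for the epithelial surface protein EpCAM and against CD31, CD45 and Ter119, which mark endothelial, white and red blood cells. The libraries held 13785920 to 35711533 UMIs, and of 25010 cells kept 23184 fell in C1 to C15. The median depth of a cell was 3770 to 9624 UMIs per library. Cell barcodes found in more than 1 library, 791 in all, had been removed and none was among the cells kept. By the study's records NP 1, NP 2 and PI 2 were in oestrus and PI 1 in dioestrus, so the oestrous phase did not separate NP from PI in full, and its part in any difference was not tested. The clusters carry the study's names, except that C12 to C14 are joined here as basal cells, of which the study calls C14 myoepithelial: hormone-sensing progenitors (Hsp, C1 in PI and C2 in NP), differentiated hormone-sensing cells (Hsd, C3 in PI, C4 in NP, C5 in G), luminal progenitors (Lp, C6 in NP and C7 in PI), differentiated alveolar cells (Avd, C8 in G and C9 in L), alveolar progenitors (Avp, C10 in G and C11 in L), basal cells (C12 to C14) and Procr+ cells (C15). The names were checked against markers. Cited1, a marker of hormone-sensing cells, stood at 258 to 1734 CPM in C1 to C5 and at 0 to 19.3 CPM in C6 to C11, and Acta2, a smooth muscle gene of basal and myoepithelial cells, at 2008 to 26577 CPM in C12 to C14. S100a6, also a marker of hormone-sensing cells, did not separate the clusters in this way. It stood at 438 and 383 CPM in C5 and at 4165 and 4052 CPM in C6 of the NP mice. The differentiated hormone-sensing cells of the same NP mice had 7786 and 6575 CPM. Nearly every cluster came from 1 stage, so cluster and stage cannot be told apart in a comparison of single clusters.

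Prolactin is a pituitary hormone that drives the growth of alveoli in pregnancy and the production of milk. Its receptor has no enzyme activity of its own. It holds the tyrosine kinase JAK2, which on hormone binding phosphorylates STAT5A and STAT5B. These then enter the nucleus and bind DNA at palindromic sites in milk protein genes and in the genes of inhibitors such as CISH and SOCS2, which damp the signal again. Growth hormone uses a related receptor and the same kinase and STATs. In the adult gland the prolactin receptor is best known from luminal cells that also carry oestrogen and progesterone receptors.

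The letters of the STAT5 palindrome, TTCNNNGAA, were looked for in RefSeq promoters of the GRCm38.p6 build, from 250 bases before to 50 bases after the start of a gene. The motif reads the same on both strands. It occurred in 2726 of 32851 promoters (8.30%) and at 2 or more places in 150 (0.457%). Promoters were listed for 6 of the 7 pathway genes and for 6 of the 8 milk genes. The promoter of Cish holds it at 2 places around the start, and that of Csn2, the gene of β-casein, at 1 place. Both are shown because Cish is the feedback gene and Csn2 a main gene of the milk output set against Prlr below, with the motif in capitals.
Cish, chr9:107296509-107296678, plus strand: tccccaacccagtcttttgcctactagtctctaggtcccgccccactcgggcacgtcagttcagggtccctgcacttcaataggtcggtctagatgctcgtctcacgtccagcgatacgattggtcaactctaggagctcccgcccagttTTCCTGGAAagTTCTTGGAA
Csn2, chr5:87699426-87699675, minus strand: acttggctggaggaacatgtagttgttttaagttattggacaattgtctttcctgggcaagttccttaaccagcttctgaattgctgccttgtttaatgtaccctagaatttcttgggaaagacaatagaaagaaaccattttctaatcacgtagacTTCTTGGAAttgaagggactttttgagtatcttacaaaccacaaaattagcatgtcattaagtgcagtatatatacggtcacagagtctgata
In Cish the matches begin at the first transcribed base and 11 bases further on, and in Csn2 the match begins 93 bases upstream. Prlr holds TTCTAGGAA 110 bases upstream of the start of 1 of its 3 listed promoters. Among the milk genes, Csn1s1 holds TTCTTAGAA 100 bases upstream, Glycam1 TTCCCAGAA 145 bases upstream, and Csn1s2a TTCTTAGAA 20 bases downstream. These letters were not present in the windows of Ghr, Jak2, Stat5a, Stat5b, Wap and Lalba. In the GRCm38 annotation Stat5b and Stat5a lie next to each other on chromosome 11, 8626 bases apart, and Ghr and Prlr lie on chromosome 15, 6593745 bases apart.

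Prlr, the receptor through which prolactin acts, was highest in the hormone-sensing clusters in every library that held them. Prlr was among the genes the study used to name those clusters, so the levels by cluster describe the clusters and carry no test. In Hsd-NP (C4) it stood at 2277 and 2225 CPM in the 2 NP mice, and in Hsd-PI (C3) at 2533 and 3079 CPM in the 2 PI mice. The few C4 cells of the PI mice, 40 and 88, had 1967 and 2179 CPM. Hsp-NP (C2) had 1602 and 1578 CPM, and Hsp-PI (C1) 1359.7 and 1643 CPM. In Hsd-G (C5), which held only 20 and 41 cells, the levels were 811 CPM (exact 95% Poisson interval 660.2 to 987) and 1060.5 CPM (939 to 1194), the lowest of the 12 hormone-sensing sums. Hsd lay above Hsp in both NP mice and in both PI mice, and the 4 Hsp sums spanned 1359.7 to 1643 CPM. All intervals given here cover counting error only.

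The other luminal clusters had far lower Prlr levels in the same mice. Lp-NP (C6) had 80.6 and 90.4 CPM, so that Hsd-NP was 28.3 and 24.6 times as high in the same 2 mice. Lp-PI (C7) had 72.1 and 92.5 CPM, with Hsd-PI 35.1 and 33.3 times as high. Avd-G (C8) had 57.9 and 55.6 CPM, against which Hsd-G was 14 and 19.1 times as high. Then followed Avd-L (C9) with 43.7 and 36.4 CPM, Avp-L (C11) with 39.8 and 55.3 CPM and Avp-G (C10) with 34.4 and 32.4 CPM. The 13 sums of C6 to C11 thus spanned 32.4 to 92.5 CPM and did not overlap with the 811 to 3079 CPM of C1 to C5. Within that lower band the values of C9 and C11 overlapped, as did those of Lp-NP and Lp-PI, and those of C10 lay lowest.

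**Figure D1:**
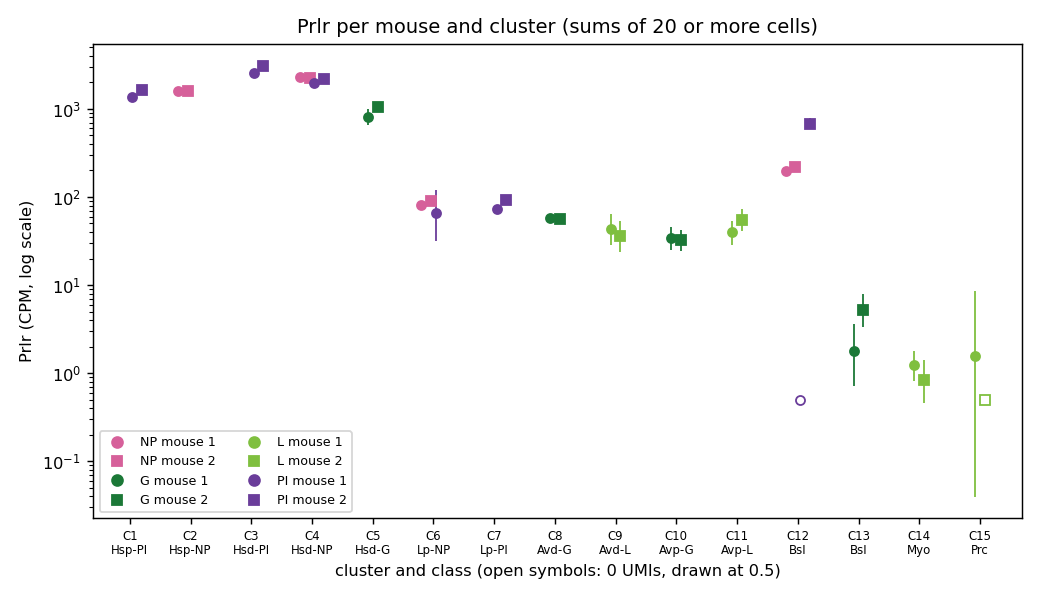
Prlr level (CPM, log axis) in each library and cluster with at least 20 cells, with exact 95% Poisson intervals as bars and open symbols, drawn at 0.5, for sums with no Prlr UMI. The hormone-sensing clusters C1 to C5 sit between 811 and 3079 CPM, and the luminal progenitor and alveolar clusters C6 to C11 between 32.4 and 92.5 CPM.

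Basal clusters differed by stage. The basal cells of NP mice (C12) had 198 and 221 CPM, those of gestation (C13) 1.77 and 5.26 CPM from 7 and 23 UMIs, and those of lactation (C14) 1.2 and 0.8 CPM. The few C12 cells of the PI mice differed from each other, with 0 UMIs in the 27 cells of PI 1, which allows up to 26.9 CPM, and 680 CPM in the 53 cells of PI 2. In Procr+ cells (C15) 1 UMI and 0 UMIs were counted in the 2 L mice.

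How much of a low level is RNA released from other cells was read against cells that should lack the receptor. Cluster C18, whose leading genes include Col1a1 and Col3a1 of fibroblasts, had 57.8 CPM of Prlr in NP 1 (24.9 to 114) and 65.6 CPM in NP 2 (40.6 to 100.2), from 24 and 56 cells. In the other libraries it had at most 1 UMI, as did C17, a cluster with the immune gene Ptprc. The Prlr levels of Lp-NP, at 80.6 and 90.4 CPM, lay within the intervals of C18 in the same mice and were not distinguishable from it. Those of the basal cells of NP (C12), at 198 and 221 CPM, lay above these intervals. In gestation the 2 C18 sums had 0 UMIs, which allows up to 13.6 and 19.9 CPM, below the level of both Avd-G and Avp-G. In PI 2 the 1 UMI of C18 gave an upper bound of 40.4 CPM, below the 92.5 CPM of Lp-PI. This bound was also below the 680 CPM of the 53 C12 cells of that mouse.

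Prlr was also set beside the other genes of hormone-sensing cells that were read, each as a percentage of its level in the Hsd cells of the same library. In Avd-G, Prlr stood at 7.14% and 5.24% of that level. Cited1, a marker of hormone-sensing cells, stood there at 0.28% and 0.42%, the progesterone receptor gene Pgr at 0.80% and 1.06%, and Areg, the gene of the growth factor amphiregulin, at 1.90% and 1.29%. The oestrogen receptor gene Esr1, at 17.4% and 12.4%, and S100a6, at 16.7% and 26.7%, stood above Prlr. In Avp-G, Prlr stood at 4.24% and 3.06%, Cited1 at 0.25% and 0.68%, and Esr1 at 4.71% and 3.58% from 3 and 4 UMIs. Pgr stood there at 2.02% and 1.04%, Areg at 1.96% and 1.72%, and S100a6 at 131% and 234%. In Lp-NP, Prlr stood at 3.54% and 4.06%, Cited1 at 2.65% and 3.16%, and Pgr at 3.24% and 2.05%. Areg stood there at 4.78% and 4.83%, Esr1 at 6.38% and 7.31%, and S100a6 at 53.5% and 61.6%. In Lp-PI, Prlr stood at 2.90% and 3.03%, Cited1 at 0.99% and 1.00%, and Esr1 at 18.7% and 32.1%. Pgr stood there at 1.67% and 2.10%, Areg at 2.08% and 1.79%, and S100a6 at 14.9% and 14.1%. In the basal cells of NP, Prlr stood at 8.72% and 9.92%, Cited1 at 7.01% and 9.18%, and Areg at 7.70% and 10.9%. Pgr stood there at 11.1% and 17.8%, Esr1 at 13.2% and 14.1%, and S100a6 at 32.4% and 33.8%. The part of released RNA in these levels was not tested.

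Shares of cells with at least 1 Prlr UMI were compared after thinning each cell to 1000 UMIs. In Hsd-PI 89.1% and 92.4% of thinned cells held a Prlr UMI, and in Hsd-NP 85.2% and 85.1%. The share was 76.2% and 75.7% in Hsp-NP, 68.2% and 76.9% in Hsp-PI, and 50% and 75.6% in Hsd-G. In Avd-G it was 5.04% and 5.17%, in Lp-NP 6.99% and 7.91%, and in the C18 cells of the NP mice 0% and 5.36%. The exact intervals of Lp-NP (4.62% to 10.1% and 5.19% to 11.5%) overlapped with those of C18 (up to 14.2% and 14.9%). In gestation none of the 38 and 31 thinned C18 cells held a Prlr UMI. Without thinning, 46.6% and 42% of Avd-G cells and 99.5% to 100% of the cells of C1 to C4 held a Prlr UMI in the sums named above.

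Ghr, the gene of the growth hormone receptor, was counted in every cluster at low level, and its pattern was not that of Prlr. It had 13.8 to 21.9 CPM in the Hsp clusters and 5.7 to 13.2 CPM in Hsd-NP and Hsd-PI. In the luminal progenitor and alveolar clusters with at least 42 cells it had 14.8 to 40.2 CPM. The lactating basal cells (C14) were highest, with 42.9 and 51.1 CPM, ahead of the gestational basal cells (C13) with 34.9 and 26.1 CPM and the basal cells of NP (C12) with 18.1 and 13.7 CPM. The C18 fibroblasts of gestation had 72.4 and 46.5 CPM. As point values, without counting error, these were above every epithelial sum of the same libraries.

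Jak2, the kinase held by both receptors, was counted at 42.6 to 85.4 CPM in the 12 sums of C1 to C5. In Lp-NP it had 24.1 and 22.0 CPM, in Lp-PI 28.4 and 27.9 CPM, and in Avd-G 16.9 and 19.9 CPM. Avd-L had 5.2 and 8.1 CPM, from 3 and 6 UMIs. The 13 sums of C6 to C11 spanned 5.24 to 39.5 CPM, just below the hormone-sensing sums. The 39.5 CPM came from the 22 C6 cells of PI 1 and the 42.6 CPM from the 41 C5 cells of G 2, so the gap is narrow. The clusters were made from the same counts, and how many of all genes separate them in this way, as Prlr does, was not counted.

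Stat5a and Stat5b encode the transcription factors. Stat5a had 36.4 to 78.9 CPM in the 12 hormone-sensing sums, with 78.9 and 64.8 CPM in Hsd-PI. In Avd-G it had 53.5 and 56.4 CPM, which fell inside that range, whereas Lp-NP had 14.8 and 27.8 CPM. Stat5b was high in the alveolar clusters of gestation, with 25.7 and 27.4 CPM in Avd-G and 24.5 and 22.5 CPM in Avp-G. It had 20.4 and 24.7 CPM in Avp-L and 8.11 to 22.8 CPM in the 12 hormone-sensing sums. Stat5a had 40.6 and 65.8 CPM in Hsd-G, the latter close to Hsd-PI. The highest sum of Stat5a was thus in Hsd-PI and that of the neighbouring Stat5b in Avd-G.

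Cish, a feedback inhibitor whose transcription STAT5 induces, was highest outside the hormone-sensing clusters. It had 52.2 and 55.2 CPM in Lp-NP, 55.0 and 38.2 CPM in Avd-G, 58.1 and 55.5 CPM in Avp-G, and 50.9 and 69.4 CPM in Avp-L. In Hsd-NP it had 9.6 and 9.8 CPM and in Hsd-PI 13.8 and 6.8 CPM, all below the 38.2 to 69.4 CPM of the 13 sums of C6 to C11. Hsp-PI had 32.8 and 22.1 CPM and Hsp-NP 24.2 and 28.0 CPM. In Hsd-G, 16.2 CPM in G 1 lay below the range of C6 to C11 and 50.3 CPM in G 2 lay inside it. The lactating basal cells had the highest levels beside Avp-L, at 66.4 and 73.7 CPM.

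Socs2, an inhibitor known for its restraint of growth hormone signalling, had its highest levels in Hsd-G, at 479 CPM (364 to 617) and 554 CPM (467 to 652). Hsd-PI followed with 253 and 251 CPM and Hsp-PI with 146 and 144 CPM. The hormone-sensing cells of NP had 51.0 and 65.3 CPM in Hsp and 56.1 and 57.2 CPM in Hsd. Basal cells had 149 and 164 CPM in gestation and 170 and 157 CPM in lactation, and the alveolar cells of gestation only 42.9 to 53.0 CPM. Within the same 2 G mice Socs2 was 11.2 and 11.8 times as high in Hsd-G as in Avd-G. Within the NP mice the ratio of Hsd to Lp was 1.39 and 1.33.

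**Figure D2:**
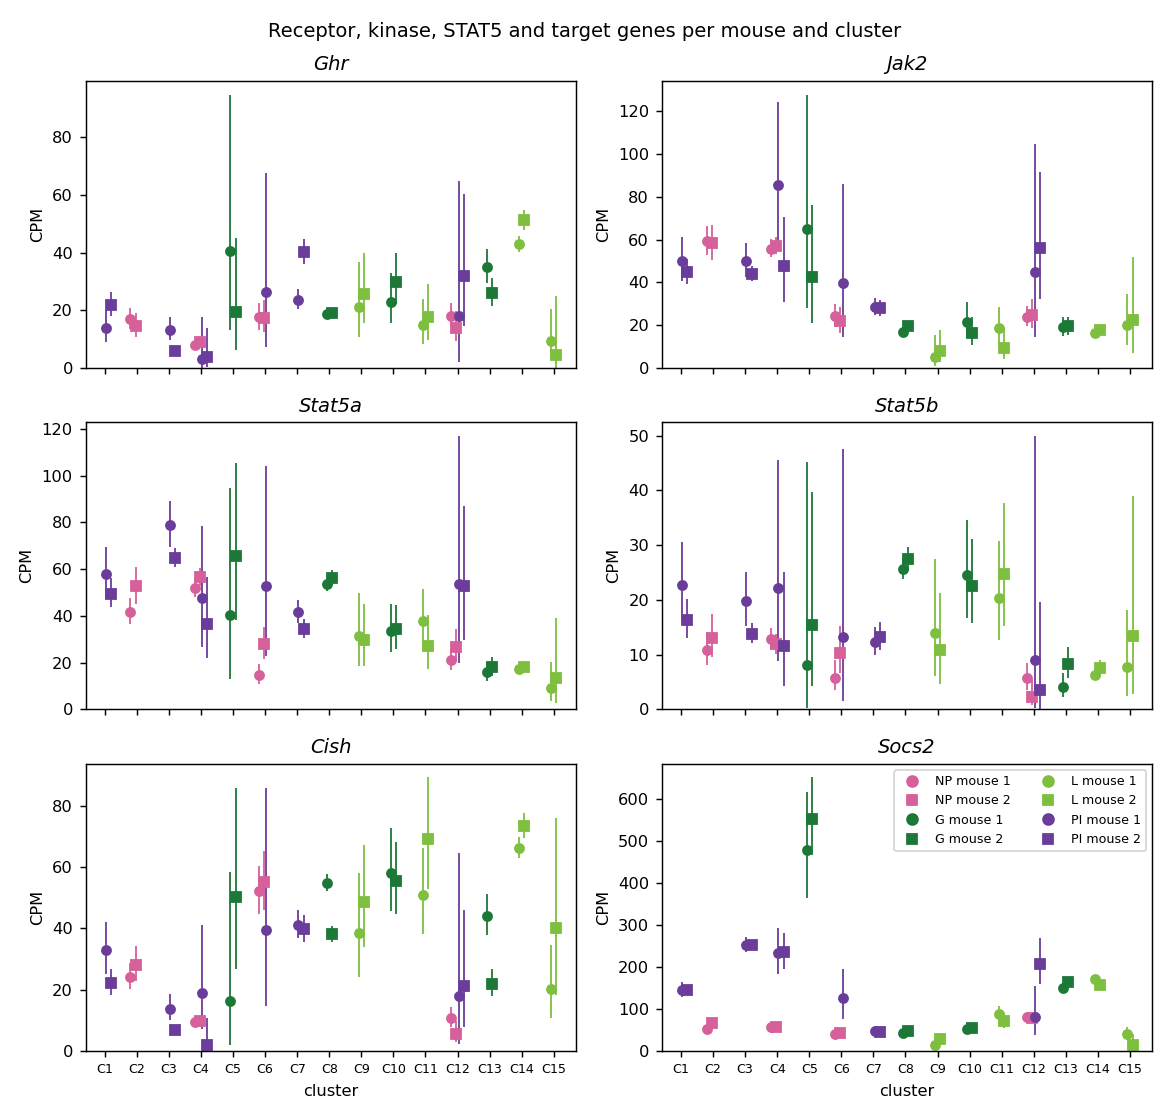
Levels of the pathway genes other than Prlr (CPM, linear axes) by cluster, 1 point per library. Jak2 in C1 to C5 lies above C6 to C11, and Cish in the main Hsd clusters of PI (C3) and NP (C4) lies below C6 to C11. Socs2 reaches 479 and 554 CPM in the hormone-sensing cells of gestation (C5).

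Over the 35 sums, the genes with the pattern most like that of Prlr, by Pearson correlation of log2(CPM + 1) among 9761 genes with at least 20 CPM in 1 sum, were Dkkl1 (r = 0.935), Podxl (0.913), Cd164 (0.912), Cyb561 (0.910) and 4921506M07Rik (0.904). The sums share libraries, depth and clusters that were made from the same counts, so these values describe the pattern and carry no test. For Ghr the nearest was Pde7a (0.768), for Jak2 Akap9 (0.908), for Stat5a 0610011F06Rik (0.828), for Stat5b Sil1 (0.814), for Cish Tcf7l2 (0.802) and for Socs2 Xpr1 (0.811). Among the pathway genes themselves Prlr correlated with Stat5a (0.699) and Jak2 (0.639) and inversely with Cish (-0.524).

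The contrast of receptor and milk output was read from the summed level of 8 milk genes, namely the caseins Csn1s1, Csn1s2a, Csn1s2b, Csn2 and Csn3 with Wap, Lalba and Glycam1. In Avd-L these took 447538 and 417202 CPM, in Avd-G 96653 and 57393 CPM, and in Avp-L 72147 and 59197 CPM. The Hsd cells of NP, with the receptor at 2277 and 2225 CPM, had 14.6 and 11.9 CPM of milk transcripts. In fibroblasts (C18) of the same mice milk stood at 14.4 and 15.6 CPM, so the milk level of those Hsd cells stood at that of fibroblasts. Likewise, Hsd-G had 1842 and 991 CPM of milk transcripts where C18 of the same mice had 1725 and 824 CPM. Hsd-PI had 75.6 and 83.4 CPM, and C18 of PI 2 had 87.0 CPM. Hsp-PI, with 6822 and 7332 CPM, lay above that level.

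Put as milk UMIs per Prlr UMI, Hsd-NP had 0.00641 and 0.00536 and Hsd-PI 0.0298 and 0.0271. Lp-NP had 9.56 and 15.98, Lp-PI 189 and 159, Avp-G 118 and 62.6, and Avp-L 1814 and 1071. The ratio reached 1668 and 1032 in Avd-G and 10248 and 11465 in Avd-L. The receptor was highest in the Hsd clusters and milk in Avd-L, but the order was not opposite throughout. Avd-G and Avp-L each had more of both than Avp-G. Hsd-PI also stood above Hsd-NP in both, but this pair cannot be read as milk output. The milk levels of these Hsd cells stood near those of fibroblasts, wherever fibroblasts of the same mouse were read. No change of Prlr between NP and PI was called in Hsd cells. Over the 25 luminal sums Spearman's rho with milk output was -0.785 for Prlr and -0.778 for Jak2, 0.628 for Cish, 0.608 for Ghr and 0.334 for Stat5b. It was -0.412 for Stat5a and -0.501 for Socs2. With the milk genes left out of the total, which matters where they take a large part of it, rho was -0.752 for Prlr, 0.792 for Cish and -0.118 for Stat5a. These are descriptions over sums that share libraries and depth.

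**Figure D3:**
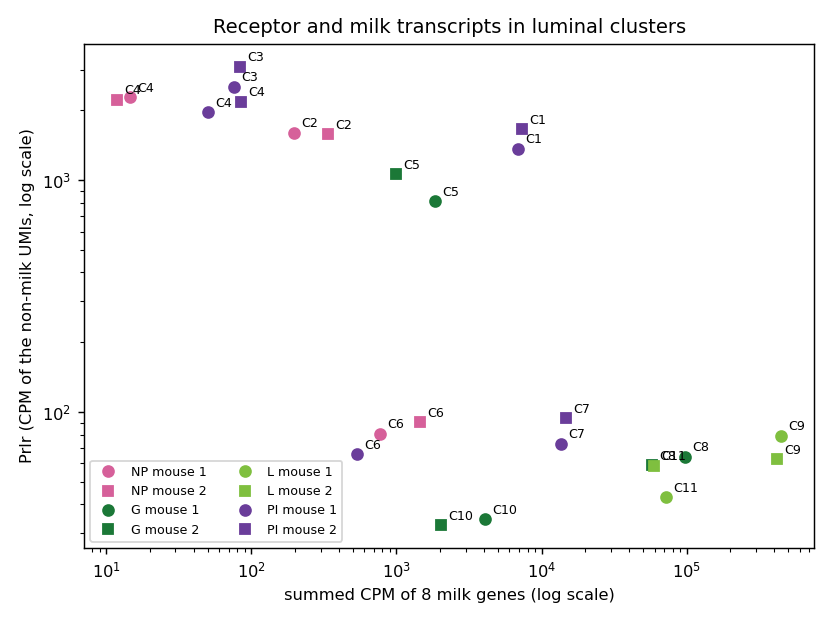
Prlr level (CPM of the UMIs other than milk) against the summed level of 8 milk genes (CPM) in the luminal sums, log axes, coloured by stage. Hormone-sensing sums lie at high Prlr and low milk. The sums of C9 lie at 62.4 and 79.0 CPM of Prlr on this scale, with 417202 and 447538 CPM of milk genes.

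Inside a single cluster the order was different. The Avd-G cells of each mouse were divided into 4 groups of equal size by the share of milk UMIs in each cell, and levels were taken as CPM of the UMIs other than milk. The milk share averaged 2.45% in the lowest group and 17.4% in the highest of G 1, and 1.20% and 11.8% in those of G 2. Prlr was 56.0 CPM (50 to 62.4) in the lowest group and 72.5 (65.6 to 80.0) in the highest in G 1, a ratio of 1.30. In G 2 it was 52.6 (46.4 to 59.3) and 67.7 (60.4 to 75.6), a ratio of 1.29. So on this scale the cells with most milk had somewhat more Prlr in both mice, and the intervals of counting error did not overlap. The result depends on the scale, since milk took 17.4% and 11.8% of UMIs in the highest groups. As CPM of all UMIs the rise is smaller and the intervals overlap.

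On the same scale of UMIs other than milk, Stat5a was also higher in the highest milk group of both mice. Its ratios to the lowest were 1.17 and 1.27, and its intervals overlapped in G 1 and did not in G 2. Jak2 had ratios of 0.768 and 0.702, Ghr of 0.996 and 1.11, and Stat5b of 1.09 and 0.970. Cish had 1.16 and 0.972, and Socs2 0.788 and 0.939. For scale, Elf5, a transcription factor needed for alveolar differentiation, had ratios of 2.11 and 1.90, Aldh1a3, a luminal progenitor marker, 0.110 and 0.175, and Krt18, a general luminal keratin, 1.01 and 1.22. Cells were ordered on 1 outcome and read on others within the same mouse, so these ratios carry no test across mice.

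**Figure D4:**
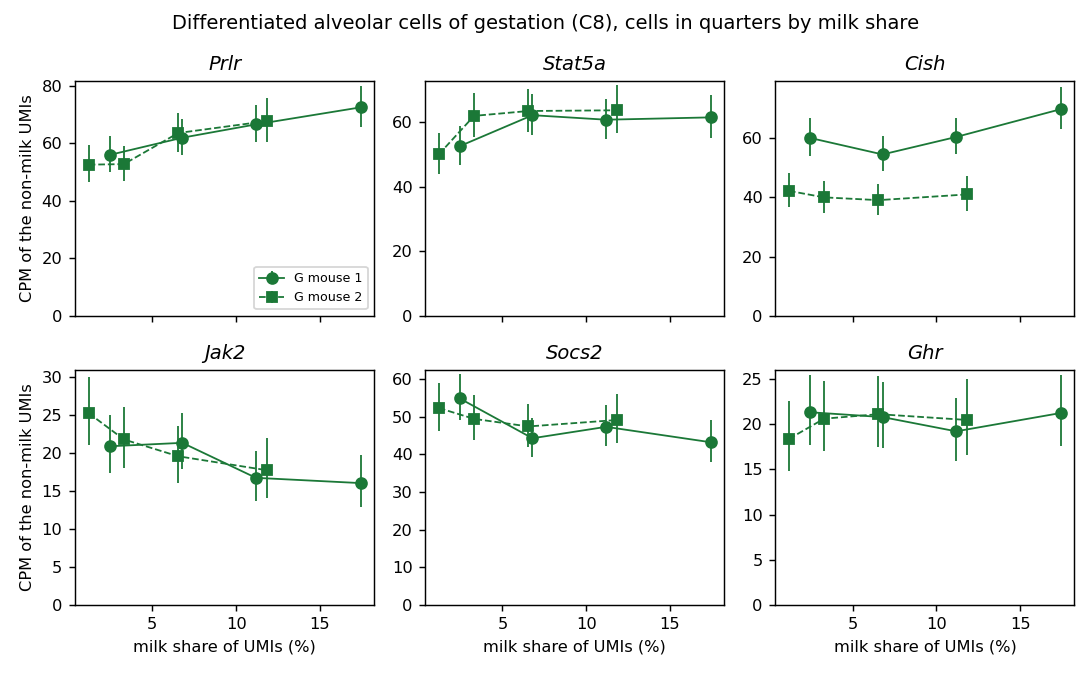
Levels of Prlr, Stat5a, Cish, Jak2, Socs2 and Ghr in the 4 milk groups of differentiated alveolar cells of gestation. Groups are ordered by the share of milk UMIs per cell, in G 1 and G 2 (CPM of the UMIs other than milk, exact 95% Poisson intervals). Prlr rises from 56.0 to 72.5 in G 1 and from 52.6 to 67.7 in G 2, while Jak2 falls from 20.8 to 15.99 and from 25.2 to 17.7.

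Stages were then compared within a cell class, with the counts of each mouse summed over the clusters of that class and tested across all genes with the quasi-likelihood test of edgeR (Benjamini-Hochberg adjustment, called at an adjusted p under 0.05). Each comparison set 2 mice against 2. Log2 changes are later stage minus earlier stage and come from normalised counts.

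In the differentiated hormone-sensing cells, Socs2 rose with parity and no change of the receptor was called. Socs2 stood at 56.1 and 57.2 CPM in NP and at 251 and 251 CPM in PI, a log2 change of 2.09 ± 0.15 (SE, adjusted p = 1.17e-05) or 4.25-fold. The groups were far apart and the mice within each almost equal. It was the 1 pathway gene called of 7, where 14.3% of all genes tested were called. Prlr stood at 2277 and 2227 CPM in NP and at 2484 and 3050 CPM in PI, a log2 change of 0.24 (95% interval -0.24 to 0.72, adjusted p = 0.505). The other 5 genes had log2 changes from -0.29 for Jak2 to 0.33 for Stat5b.

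The hormone-sensing progenitors showed the same gene. Socs2 went from 51.0 and 65.3 CPM to 145 and 143 CPM, a log2 change of 1.30 ± 0.16 (adjusted p = 0.000172). It was again the 1 call of 7, against 16.6% of all genes. Prlr changed by -0.08 (95% interval -0.46 to 0.29, adjusted p = 0.794) and Stat5b by 0.66 (adjusted p = 0.0734, but 0.0260 without a filter and 0.00887 without PI 2), and the remaining 4 genes had log2 changes from -0.32 for Jak2 to 0.26 for Ghr. The rise of Socs2 was larger in the differentiated cells than in the progenitors, with a difference of the log2 changes of -0.81 (progenitors minus differentiated cells, edgeR, adjusted p = 0.00212), where 3.82% of all genes had such a call. This call was lost without NP 2 (difference -0.58, adjusted p = 0.177) and without a term for the mouse (0.0761).

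In luminal progenitors 2 of 7 genes were called, against 26.9% of all genes tested. Ghr had 17.5 and 17.4 CPM in NP and 23.7 and 40.1 CPM in PI, a log2 change of 0.96 ± 0.26 (adjusted p = 0.0191). Stat5a had 14.8 and 27.7 CPM in NP and 41.9 and 34.3 CPM in PI, a log2 change of 0.96 ± 0.24 (adjusted p = 0.0145). The PI mice were far apart in Ghr and the NP mice in Stat5a. Both calls were lost when each cell was thinned to 2000 UMIs (adjusted p = 0.131 and 0.129) and without NP 1 (0.0738 and 0.155), and that of Ghr also without PI 2 (0.1002). Prlr had a log2 change of 0.03 (95% interval -0.32 to 0.37, adjusted p = 0.912), while all 7 milk genes tested rose. Stat5b had 5.73 and 10.3 CPM in NP and 12.3 and 13.6 CPM in PI, and its log2 change of 0.82 was not called (adjusted p = 0.0563). It was called without a filter on low counts (0.00725), with the replicate number as a term (0.0268), in the joint fit (0.0438) and without NP 2 (0.0145). No call was made for the log2 changes of Jak2 (0.37), Socs2 (0.28) and Cish (-0.31). Hormone-sensing markers summed to 4194 and 4073 CPM in the NP sums and 1319 and 1055 CPM in the PI sums. Of the 4, 1 was higher and 1 lower. Most of the sum was S100a6, at 4165 and 4052 CPM in C6 of NP and 1259 and 1021 CPM in C7 of PI. Esr1 stood at 5.13 and 6.64 CPM in C6 and at 13.9 and 15.2 CPM in C7. Cited1 stood at 19.3 and 15.8 CPM in C6 and at 14.7 and 8.79 CPM in C7. Pgr stood at 5.13 and 2.90 CPM in C6 and at 2.30 and 4.27 CPM in C7. The part of these markers in the changes was not tested.

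Luminal progenitors and differentiated hormone-sensing cells differed in their change with parity for 4 of 7 genes, where 20.2% of all genes had such a call. The difference of log2 changes, luminal progenitors minus hormone-sensing cells, was 1.28 for Ghr (adjusted p = 0.0191), 0.64 for Jak2 (0.0134), 0.64 for Stat5a (0.0292) and -1.83 for Socs2 (1.23e-07), all by edgeR. Only that of Socs2 held in every alternative run. With DESeq2 the adjusted p was 0.199 for Ghr, 0.106 for Jak2 and 0.125 for Stat5a, and the difference for Ghr was 0.14 without PI 2 (edgeR, adjusted p = 0.819).

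Gestation changed 3 of 7 genes in the differentiated hormone-sensing cells, against 18.6% of all genes tested. Prlr was lower, at 811 and 1060.5 CPM against 2277 and 2227 CPM in NP, a log2 change of -1.49 ± 0.20 (adjusted p = 1.51e-11). Socs2 was higher, at 479 and 554 CPM in the G mice, with a log2 change of 2.96 ± 0.19 (adjusted p = 2.68e-51) or 7.80-fold. Cish was called higher with a log2 change of 1.77 ± 0.50 (adjusted p = 0.0035), from 2 and 13 UMIs in the G mice, and without G 2 its log2 change was 0.48 (adjusted p = 0.827). The call was also lost with thinned cells (0.213), in the joint fit (0.0826) and without either NP mouse (0.187 and 0.168). Ghr, with 5 UMIs in each G mouse, had a log2 change of 1.36 that was not called (adjusted p = 0.0869), and Jak2, Stat5a and Stat5b had -0.42, -0.16 and -0.15. The calls of Prlr and Socs2 were made in every alternative run. In this comparison alone, edgeR took the spread between mice wholly from the trend over all genes and gave a gene's own spread no weight. The size of its p values therefore cannot be set beside that of the other comparisons.

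The G sums of this comparison differed from those of NP beyond the pathway. The luminal keratins Krt8 and Krt18 were lower by log2 values of -1.32 and -1.21, and of the 4 hormone-sensing markers Cited1 was higher (0.92) and S100a6 lower (-4.39). The summed hormone-sensing markers stood at 8753 and 7306 CPM in NP and at 1509 and 2307 CPM in G. Of these sums S100a6 made 7786 and 6575 CPM in NP and 438 and 383 CPM in G. The median log2 change over all genes was -0.20. Their part in the change of Prlr was not tested.

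From gestation to lactation the alveolar progenitors had more Prlr and Socs2, 2 of 7 genes, against 28% of all genes tested. Prlr stood at 34.4 and 32.4 CPM in G and at 59.4 and 55.2 CPM in L, a log2 change of 1.07 ± 0.21 (adjusted p = 0.0057), from 45 to 67 UMIs a mouse. In L 1 the sum included 3 cells of C10 that gave 24 of its 67 Prlr UMIs. With the cells of C11 alone for L and of C10 alone for G the log2 change was 0.79 (adjusted p = 0.0356), and in a joint fit over all classes the call was lost (0.194). Socs2 stood at 51.3 and 53.0 CPM in G and at 93.1 and 70.2 CPM in L, a log2 change of 0.94 ± 0.20 (adjusted p = 0.0083, and 0.0510 with DESeq2). The other 5 genes had log2 changes from -0.49 for Ghr to 0.31 for Cish.

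Basal RNA moved with these changes. The basal markers Krt5, Krt14 and Acta2 were higher in L in 3 of 3 cases and summed to 126 and 197 CPM in G and to 4495 and 3304 CPM in L, and lactating basal cells (C14) had 170 and 157 CPM of Socs2 and 1.2 and 0.8 CPM of Prlr. Dissociation stress genes were higher in L in 4 of 5 cases and summed to 8439 and 7062 CPM in G and to 16234 and 11245 CPM in L. The 1 immune gene and the 1 fibroblast gene tested were higher in L as well. The part of basal RNA, of RNA from other cells and of stress in the changes was not tested.

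In the differentiated alveolar cells 1 of 7 genes was called between gestation and lactation, against 18.7% of all genes tested. Ghr had 18.6 and 19.04 CPM in G and 20.8 and 25.5 CPM in L, from 12 and 19 UMIs in L, and a log2 change of 1.22 ± 0.29 (adjusted p = 0.0112). The change is larger than the CPM show because milk genes took 447538 and 417202 CPM of C9. With milk left out of the total, Ghr stood at 20.6 and 20.2 CPM in Avd-G (C8) and at 37.9 and 43.9 CPM in Avd-L (C9). The call was lost with thinned cells (adjusted p = 0.773) and without G 2 (0.0597) or L 2 (0.162). Prlr stood at 57.9 and 55.6 CPM in G and at 45.0 and 37.6 CPM in L and had a log2 change of 0.43 ± 0.21 (adjusted p = 0.186), so the direction in CPM was the reverse of that in normalised counts. Cish had a log2 change of 0.80 (adjusted p = 0.0852, and 0.0271 with the replicate number as a term), and Jak2, Stat5a, Stat5b and Socs2 had -0.53, 0.04, -0.23 and -0.18. The basal markers were again higher in L in 3 of 3 cases, summing to 111 and 107 CPM in G and to 2007 and 878 CPM in L, and dissociation stress genes in 4 of 5. The change of Ghr was larger than in the alveolar progenitors by a log2 difference of 1.83 (edgeR, adjusted p = 0.0164), where 3.86% of all genes had such a call. It was lost with DESeq2 (adjusted p = 0.0554) and without G 1 (0.0616), G 2 (0.361) or L 2 (0.0923).

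Basal cells changed in 4 of 7 genes from NP to gestation, against 46.1% of all genes tested. Prlr fell from 198 and 221 CPM in the C12 cells of NP to 1.77 and 5.26 CPM in the C13 cells of G. Over the summed basal clusters its log2 change was -5.78 ± 0.24 (adjusted p = 7.93e-11). Markers of hormone-sensing cells fell with it in 4 of 4 cases, Cited1 by 4.86 and Esr1 by 2.58 on the log2 scale, as did the luminal keratin Krt18 (by 2.90) and Areg (by 3.28). In C18 of the same NP mice Prlr stood at 57.8 and 65.6 CPM, below the level of C12. Whether the receptor change is that of basal cells or of RNA from hormone-sensing cells in the NP libraries cannot be told apart. Cish rose from 10.8 and 5.46 CPM to 44.8 and 22.0 CPM, a log2 change of 2.01 ± 0.33 (adjusted p = 0.000153). Socs2 rose from 79.2 and 78.3 CPM to 149 and 162 CPM, a log2 change of 1.07 ± 0.13 (adjusted p = 7.85e-06). Ghr had a log2 change of 0.98 ± 0.22 (adjusted p = 0.00176), a call lost with thinned cells (0.118). Jak2, Stat5a and Stat5b had log2 changes of -0.25, -0.38 and 0.53 that were not called. All 5 stress genes were higher in G as well.

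From gestation to lactation 3 of 7 genes were called in basal cells, against 48.3% of all genes tested. Cish rose from 44.8 and 22.0 CPM to 66.4 and 73.7 CPM, a log2 change of 1.19 ± 0.26 (adjusted p = 0.00608). Ghr had 34.7 and 26.0 CPM in G and 43.0 and 51.1 CPM in L, a log2 change of 0.75 ± 0.18 (adjusted p = 0.00917, and 0.0548 without G 2). Prlr was called lower by 1.63 ± 0.53 (adjusted p = 0.0315) from 7 and 23 UMIs in G and 26 and 14 in L, and lost the call without G 2 (0.541), with DESeq2 (0.0745) and in the joint fit (0.121). Socs2, Jak2, Stat5a and Stat5b had log2 changes from -0.05 to 0.29, none of them called. Stress genes were higher in L in 5 of 5 cases and summed to 4577 and 2778 CPM in G and to 21118 and 16421 CPM in L. Their part in these changes was not tested. Over the basal comparisons Cish thus stood higher at each later stage, from 10.8 and 5.46 CPM in NP to 66.4 and 73.7 CPM in L.

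**Figure D5:**
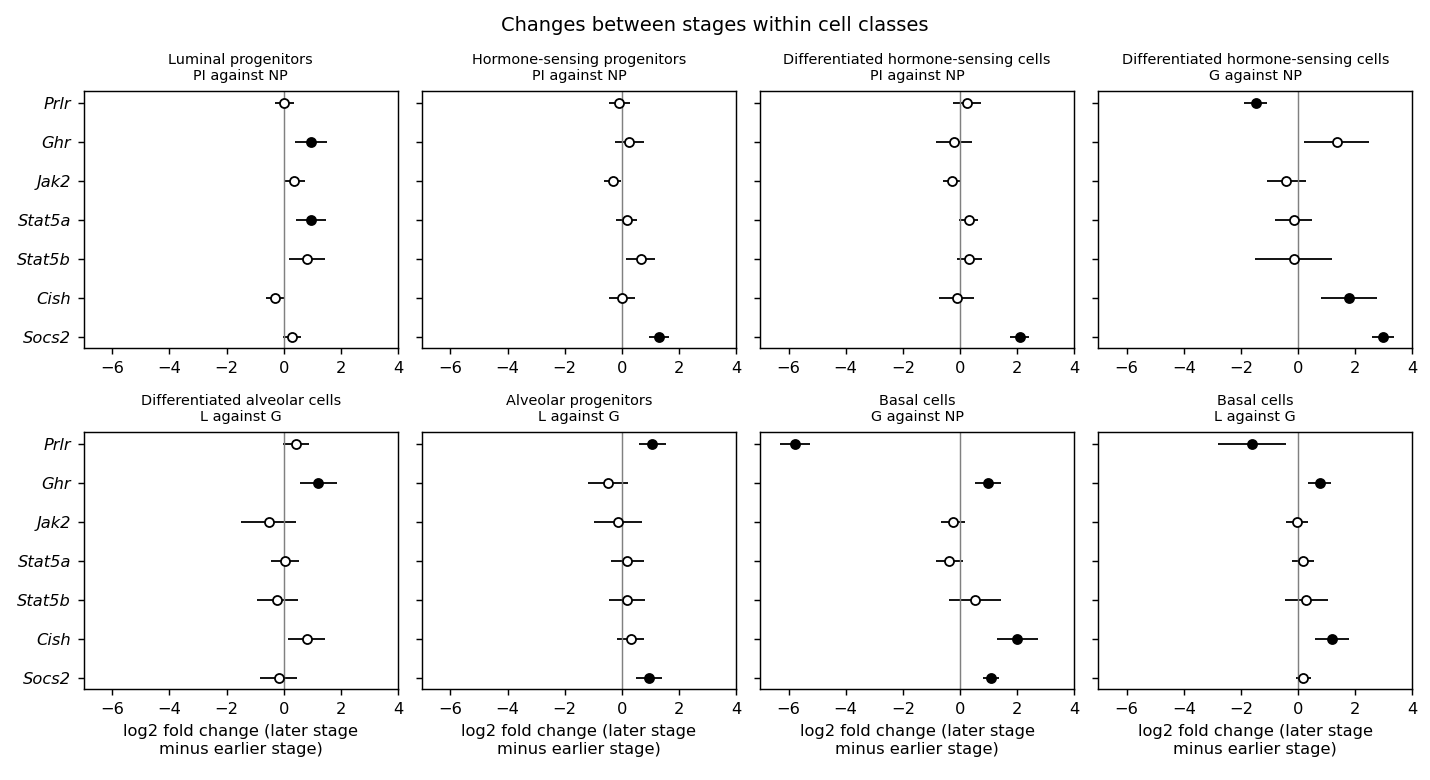
Log2 change of each pathway gene in the 8 comparisons of stages, with 95% intervals from edgeR, filled where the adjusted p was under 0.05. Socs2 rises with parity in both hormone-sensing classes (1.30 and 2.09) and in gestation (2.96), and Prlr falls in hormone-sensing cells in gestation (-1.49) and in basal cells (-5.78).

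The rest of the pathway was read from lists. The ligands Prl and Gh, made in the pituitary, and the placental lactogens Prl3b1 and Prl3d1 had 0 UMIs in every sum. Milk genes rose with parity in 7 of 7 tested in luminal progenitors, 6 of 6 in hormone-sensing progenitors and 4 of 4 in differentiated hormone-sensing cells, where 26.9%, 16.6% and 14.3% of all genes tested were called. In the differentiated cells the milk level after parity stood at that of C18 in PI 2. Milk genes also rose from gestation to lactation in 8 of 8 in both alveolar classes, against 18.7% of all genes called in the differentiated cells and 28% in the progenitors. Of the other JAK and STAT genes, 0 of 7 were called by edgeR or by DESeq2 in each of the 3 comparisons of hormone-sensing cells, where 3 (progenitors), 1 (differentiated cells with parity) and 1 (differentiated cells in gestation) had an unadjusted p under 0.05. In luminal progenitors Stat3 was higher in PI than in NP (0.48). Between gestation and lactation 0 of 7 were called in differentiated alveolar cells (1 at an unadjusted p under 0.05, 1 by DESeq2) and 0 of 4 in alveolar progenitors (0 and 0). In lactating basal cells Jak1 fell by 0.94 and Stat3 by 0.55, and Stat6 rose by 0.62.

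Among other negative regulators the largest changes were those of Socs3, which restrains signalling of the interleukin-6 family. Of 14 regulators tested, edgeR called 1 higher and 1 lower with parity in luminal progenitors, 2 lower in hormone-sensing progenitors and 1 lower in differentiated hormone-sensing cells, 4 lower in gestation in the last of these, and 3 higher and 8 lower in lactating basal cells. The shares of all genes called in these comparisons were 26.9%, 16.6%, 14.3%, 18.6% and 48.3%. Socs3 rose from gestation to lactation in alveolar progenitors (3.93), differentiated alveolar cells (3.65) and basal cells (4.15), and was lower in G than in NP in differentiated hormone-sensing cells (-2.88) and basal cells (-1.29). Its direction was opposite to that of Socs2 in the hormone-sensing cells of gestation. Stress genes, which also respond to dissociation, moved with it in lactation, and their part was not tested. Of the other class I cytokine receptors, 2 of 8 were higher with parity in luminal progenitors, 1 of 9 was higher and 3 lower in hormone-sensing progenitors, and 2 of 11 were higher and 4 lower in differentiated hormone-sensing cells, against 26.9%, 16.6% and 14.3% of all genes called in either direction. Among them Il4ra rose with parity in luminal progenitors (1.72) and hormone-sensing progenitors (1.54), and Lepr (-2.76) and Il6ra (-1.66) fell in differentiated hormone-sensing cells.

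Of the effectors and targets of prolactin in the gland, 3 of 8 rose and 2 fell with parity in luminal progenitors and in hormone-sensing progenitors alike, and 4 of 10 rose and 2 fell in differentiated hormone-sensing cells in gestation, against 26.9%, 16.6% and 18.6% of all genes called in either direction. In the differentiated hormone-sensing cells of gestation Tnfsf11, the gene of RANKL that carries the hormonal signal to neighbouring cells, stood at 2.58 and 1.65 CPM in NP and at 617 and 677 CPM in G, a log2 change of 8.03. Igf2, a growth factor gene, stood at 0.235 and 3.02 CPM in NP and at 2726 and 4575 CPM in G. Wnt4, another paracrine signal, rose by 0.89, while Areg changed by -1.58. Elf5, a transcription factor of alveolar cells, rose with parity in luminal progenitors (1.41), hormone-sensing progenitors (1.92) and differentiated hormone-sensing cells (1.21), and from gestation to lactation in alveolar progenitors (1.81). Areg was lower after parity in the same 3 classes, by log2 values of -2.59, -1.72 and -1.38. In both hormone-sensing classes, then, Socs2 and Elf5 were higher and Areg lower in PI than in NP, and no change of Prlr was called.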

How the data were processed

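Libraries were grouped by the stage in the labels, with separate mice as replicates. The deposited matrices hold UMI counts per gene and cell, made by the authors with Cell Ranger from reads aligned to mm10 (STAR is named in the submitters' processing notes), without normalisation. The deposited cell annotation gives the authors' clusters, quality flags and, as a fraction, how much of the UMIs is mitochondrial. Cells that passed every flag of the authors were used, and cells that the authors had clustered as doublets lie outside C1 to C15. All 7 genes and the lists of related genes were chosen with earlier results of these data known. The text names the 7 genes throughout, list genes among the 4 with the largest change per list and comparison, and the most similar genes by correlation.

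Counts were summed per mouse and cell class and tested with edgeR 4.0.16 in R 4.3.3 (TMM, filterByExpr, quasi-likelihood F-test, Benjamini-Hochberg adjustment over all genes tested). Differences between classes carried a term for the mouse. Sums of at least 20 cells entered levels and correlations. Intervals are exact at 95% (Poisson for counts, Clopper-Pearson for shares). A count of 0 was taken to allow up to 3 counts, a 1-sided bound that is lower than the upper end of the exact interval. Both cover counting error only. Python 3.11.15, scipy 1.17.1 and pandas 2.3.3 were used for levels. Alternatives were DESeq2 1.42.0, RLE size factors, other filters, milk genes left out, thinned cells, a joint fit, a replicate term, the main cluster alone and each mouse left out. The main-cluster alternatives for both alveolar classes and for the differences between classes were added after seeing the data. Free RNA was not removed. Tested on simulated counts with 2 against 2 mice, the test recovered 13% to 28% of 2-fold and 91% to 98% of 4-fold changes over the 8 comparisons, so that changes near 2-fold were often not detectable. Levels of different genes were not compared with each other, since 3′ counts also depend on where reads were assigned. For 1 list gene the result is not reported here.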

Additional observations from a re-analysis of the deposited data

Results flagged for a closer look

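Differences between cell classes in the change of a gene, tested as such with edgeR, drew attention to 6 values. Between luminal progenitors and differentiated hormone-sensing cells the log2 change with parity differed by 1.28 for Ghr, 0.64 for Jak2, 0.64 for Stat5a and -1.83 for Socs2. Between hormone-sensing progenitors and differentiated hormone-sensing cells it differed by -0.81 for Socs2. Between differentiated alveolar cells and alveolar progenitors the change from gestation to lactation differed by 1.83 for Ghr.

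Clusters outside the epithelial comparisons held some pathway genes at levels above every epithelial cluster of the same library, in both mice of a stage. In C18, which carries fibroblast collagens, Ghr stood at 28.9 and 46.8 CPM in NP and at 72.4 and 46.5 CPM in G, Jak2 at 86.6 and 65.6 CPM in NP, and Stat5b at 36.1 and 15.6 CPM in NP. In C19, which carries the endothelial genes Pecam1 and Eng, Jak2 stood at 156 and 147 CPM in G and at 79.2 and 137 CPM in L, Stat5b at 40.8 and 40.3 CPM in L, and Socs2 at 335 and 391 CPM in L. These sums held 24 to 191 cells from an epithelial sort.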

How the results depend on the processing

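Of 77 tests of a pathway gene, 23 gave a call. Of these, 9 were made in every alternative run, 14 were lost in at least 1, and 0 changed sign. The 9 were Socs2 in both hormone-sensing classes with parity, in hormone-sensing and basal cells of gestation and between luminal progenitors and hormone-sensing cells, Prlr in hormone-sensing and basal cells of gestation, and Cish in both basal comparisons. RLE size factors and leaving out milk genes moved no count of pathway genes called. Replicate numbers did not pair the mice, since the deviations of same-numbered mice correlated at -0.052 to 0.073. With the replicate block, Cish gained a call in differentiated alveolar cells, making 2, and Stat5b in luminal progenitors, making 3. Cish in hormone-sensing progenitors stood at 0.0061, and no other call of a pathway gene changed within the stage comparisons. In the fits between classes without the replicate block, genes called numbered 119 (alveolar), 111 (hormone-sensing) and 1159 (luminal progenitors), and pathway genes called 0 for the hormone-sensing classes and 2 for luminal progenitors.

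DESeq2 called 1590 genes in luminal progenitors where edgeR called 2892, 823 in hormone-sensing progenitors (edgeR 1778), 1144 in alveolar progenitors (2368), 3098 in basal cells of gestation (5114), and between classes 1082 (2375), 216 (449) and 188 (341). Its pathway genes numbered 1 in alveolar progenitors, 1 for luminal progenitors against hormone-sensing cells and 0 between alveolar classes. With cells thinned to 2000 UMIs the genes called were 1565 in luminal progenitors, 427 in hormone-sensing progenitors, 973 and 789 in differentiated hormone-sensing cells with parity and in gestation, 832 and 890 in differentiated and progenitor alveolar cells, and 2916 in basal cells of gestation, and the pathway genes 0 in luminal progenitors, 0 in differentiated alveolar cells and 1 in alveolar progenitors. The study's filter gave 1070 genes in differentiated hormone-sensing cells with parity and 3335 in lactating basal cells, with fewer genes tested. Without a filter 537 genes differed between alveolar classes, with 2 pathway genes called there, 2 in differentiated alveolar cells and 2 in hormone-sensing progenitors. The joint fit called 1 pathway gene in alveolar progenitors. The causes were not tested.

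The log2 changes that turned sign were not called in edgeR's comparisons as reported. Cish in hormone-sensing progenitors (-0.0034) was 0.034 with DESeq2, 0.0074 with RLE, 0.0049 with the main cluster alone and 0.010 without a filter. Thinning gave -0.31 for Prlr, -0.64 for Stat5a and 0.78 for Stat5b in differentiated alveolar cells and -0.023 for Prlr in luminal progenitors. The study's filter gave 0.0093 for Socs2 in differentiated alveolar cells and -0.010 for Prlr in luminal progenitors, and the joint fit 0.022 for Jak2 in lactating basal cells. Stat5a stood at -0.047 without a filter in differentiated alveolar cells, and between alveolar classes at -0.17 without a filter and -0.029 with the main cluster alone.

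Leaving out each mouse in turn gave, in luminal progenitors, 1704 to 2472 genes called, 0 to 3 pathway genes and -0.17 to 0.22 for Prlr. In hormone-sensing progenitors it gave 476 to 1960 genes, 1 to 2 pathway genes, -0.22 to 0.31 for Cish, -0.21 to 0.49 for Ghr, -0.24 to 0.067 for Prlr and -0.031 to 0.38 for Stat5a. Differentiated hormone-sensing cells gave 928 to 2458 genes with parity, -0.52 to 0.45 for Cish and -0.61 to 0.39 for Ghr, and 808 to 1580 genes in gestation, -0.69 to 0.020 for Stat5a and -0.87 to 0.067 for Stat5b. Differentiated alveolar cells gave 609 to 1890 genes, 0 to 2 pathway genes and -0.87 to 0.20 for Socs2. Alveolar progenitors gave -0.74 to 0.25 for Jak2 and -0.088 to 0.42 for Stat5a. Basal cells gave -0.059 to 1.20 for Stat5b in gestation, and in lactation 1 to 3 pathway genes, -0.11 to 0.051 for Jak2 and -0.13 to 0.89 for Stat5b. Between luminal progenitors and hormone-sensing cells the ranges were 1123 to 2385 genes, 1 to 3 pathway genes and -0.75 to 0.18 for Cish, and between the hormone-sensing classes 177 to 513 genes, 0 to 2 pathway genes, -0.17 to 0.26 for Cish, -0.63 to 1.06 for Ghr and -0.26 to 0.0062 for Stat5a. Between the alveolar classes they were 145 to 757 genes, 0 to 1 pathway genes, -1.08 to 0.63 for Jak2, -0.23 to 0.28 for Stat5a and -0.54 to 0.0015 for Stat5b. A lone mouse left in a group was assumed to vary like the other group.

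Thinning cells moved 105 of the levels beyond the spread between mice and left 91 within it, and leaving milk out of the total moved 17. Precision is limited by 2 mice a group and by the few cells, 20 to 47, in the sums of lactating differentiated alveolar and gestational hormone-sensing cells.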
